A study of Mus musculus with 4 samples.

Results

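5 probe sets of the deposited table carried the names of genes that lie in recent human segmental duplications, and all 5 were brighter on both arrays of tumors grown from DHHC3-depleted cells than on both control arrays. They were found by the platform annotation, as every probe set that lists SPDYE2, ANKRD36B, GTF2I, PLGLB1 or PLGLB2, alone or with other symbols. This gave 5 of the 137 probe sets in the table, for 5 of the 119 gene symbols it lists. SPDYE2, ANKRD36B and GTF2I each had 1 probe set of their own. PLGLB1 and PLGLB2 shared the remaining 2, and each of those lists both symbols.

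The tumors were xenografts of MDA-MB-231, a human triple-negative breast cancer line, grown in the mammary fat pad of nude mice (female, athymic, Crl:NU(NCr)-Foxn1nu). In 2 tumors the injected cells carried a control short hairpin RNA (shRNA). In the other 2 they carried an shRNA against DHHC3, the product of ZDHHC3, an enzyme that adds palmitate to proteins. The labels give a tumor age of 35 days, and the design text gives 10 injections per group and 30 days of volume measurements. The study's title concerns tumor growth, oxidative stress and senescence, and the arrays address which transcripts differ between such tumors. All hosts lacked a thymus, and the injected cells of both groups carried an shRNA. The number of hairpins or clones and whether the 2 tumors of a group grew in separate mice are not stated in the labels, so the replicate spread may be technical in part.

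Segmental duplications are long stretches of genome that exist in several nearly identical copies, and those that arose recently in the primate lineage hold gene families whose members differ little in sequence. A short oligonucleotide probe can bind the transcripts of more than 1 copy, so the signal of a probe set in such a family can be the sum of what several copies contribute. Copies of this kind include functional genes, truncated genes and transcribed pseudogenes. SPDYE2 belongs to the Speedy family, whose founding members bind and activate cyclin-dependent kinases. ANKRD36B encodes an ankyrin repeat protein, and GTF2I encodes TFII-I, a transcription factor that responds to signals from the cell surface and whose gene is deleted in Williams-Beuren syndrome. PLGLB1 and PLGLB2 encode short relatives of plasminogen that lack its protease domain.

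The genes were chosen by their fold changes in the contrast described here, DHHC3 shRNA against control shRNA. Their values are therefore given as a description, with no test. The samples are labelled with the host's species, mouse, while the probe sets are those of a human array, and how much mouse RNA bound to them was not tested. In whole tumors, fewer cells of a type and less RNA per cell cannot be told apart. ZDHHC3, the targeted gene, read 971 and 854 units in the controls against 240 and 264 after DHHC3 shRNA, which went with the labels. Of 12 genes that characterise MDA-MB-231 cells by their presence or absence, and of 9 markers of leukocytes, endothelium, fibroblasts, fat and epithelium, 0 were in the table, so these 2 marker lists could not be checked. Genes outside the lists that leukocytes or stroma express were in the table, and some were singled out after their values were seen. Log2 fold changes were -2.09 for TRBC1, -1.26 for BCL2A1, -0.91 for PTPN7 and -0.73 for HCLS1, and 1.65 for COL6A3 and 0.94 for COL4A1. The choice is partial, and others went the other way: 1.38 for NAIP, which leukocytes express, and -1.08 for S100A4, which stroma can express. For TRBC1 the DHHC3 shRNA arrays differed from each other by 0.99 on the log2 scale. The part of other cell types in the values below was not tested. Across all 137 probe sets the groups did not overlap in 100% (limma adjusted p under 0.05 in 100% as well), and 73.7% were higher after DHHC3 shRNA. That all 5 duplicated-gene probe sets were higher without overlap is thus a property of the table and says nothing particular to them.

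As deposited, 1 of the 2 probe sets of the plasminogen-like genes had the highest fold change in the table, ahead of VGLL3 by less than its SE (log2 fold changes of 2.04 and 1.99), and after quantile normalization it was 2nd to COL6A3. This probe set, 214415_at, lists PLGLB1 and PLGLB2 and read 134 and 110 units in the control tumors and 514 and 483 units in the DHHC3 shRNA tumors. Every DHHC3 shRNA value lay above every control value, and the nearest 2 arrays of different groups were 3.61-fold apart. The group means were 122 ± 17.1 and 499 ± 21.6 (SD, n = 2 each), and the ratio of geometric means was 4.11. On the log2 scale the difference was 2.04 ± 0.12 (SE from the limma fit across the table).

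Probe set 205871_at, which lists the same pair of genes, read 162 and 137 units in the control tumors and 480 and 437 units in the DHHC3 shRNA tumors. Here too both DHHC3 shRNA arrays were above both controls, with 2.69-fold between the nearest arrays. The ratio of geometric means was 3.07, from 150 ± 17.8 to 458 ± 30.3 units (SD, n = 2 each), and the log2 difference was 1.62 ± 0.12 (SE). On both probe sets replicate 1 was the brighter array of its group, in the control and in the DHHC3 shRNA tumors. The 4 arrays thus had the same order on both PLGLB probe sets. All 137 probe sets separated the groups, 73.7% in this direction. Replicate 1 was the brighter control for 73 of the 137 and the brighter DHHC3 shRNA array for 77. The fold changes of the 2 PLGLB probe sets differed by a factor of 1.34, or 0.42 on the log2 scale. Both names end in the plain suffix _at, which the array's design gave to probe sets meant for a single transcript, while the annotation now lists 2 genes for each. Which of PLGLB1 and PLGLB2 gave the signal, or whether transcripts of plasminogen itself (PLG) added to it, was not tested.

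SPDYE2 came next in size. Its probe set 217610_at read 62.6 and 88.3 units in the control tumors and 245 and 233 units in the DHHC3 shRNA tumors. The control arrays were 1.41-fold apart and the DHHC3 shRNA arrays 1.05-fold, so the spread lay mainly among the controls. The group means were 75.5 ± 18.1 and 239 ± 8.22 units (SD, n = 2 each). The ratio of geometric means was 3.22, and the log2 difference was 1.68 ± 0.17 (SE). The 4 ratios of a DHHC3 shRNA array over a control array ran from 2.64 to 3.91. Its size depended on which control array was used: the fold change was 2.71 without control replicate 1 and 3.82 without control replicate 2, and the lone control array then carried no spread of its own. The Speedy family holds many close copies, and of 30 family names looked for, SPDYE2 was the 1 present in the table.

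ANKRD36B was the least even of the group between replicate arrays. Its probe set 220940_at read 290 and 430 units in the control tumors and 962 and 1149 units in the DHHC3 shRNA tumors. In both groups replicate 2 was the brighter array, by 1.48-fold among the controls and by 1.19-fold among the DHHC3 shRNA tumors, the opposite order to that of the PLGLB probe sets. The nearest arrays of the 2 groups were still 2.24-fold apart. The group means were 360 ± 98.7 and 1056 ± 132 units (SD, n = 2 each), the ratio of geometric means was 2.98, and the log2 difference was 1.58 ± 0.21 (SE), the largest SE of the 5. It was 2.45-fold higher without control replicate 1 and 3.63-fold higher without control replicate 2. Of 11 names of the ANKRD36 family and related ankyrin genes, ANKRD36B was the 1 present in the table.

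GTF2I had the smallest fold change of the 5 and the tightest replicates. Its probe set 210892_s_at read 31.4 and 29.1 units in the control tumors and 85.0 and 84.5 units in the DHHC3 shRNA tumors. The replicate arrays differed by 1.08-fold among the controls and by 1.01-fold among the DHHC3 shRNA tumors. The means were 30.3 ± 1.62 and 84.7 ± 0.31 units (SD, n = 2 each), the ratio of geometric means was 2.80, and the log2 difference was 1.49 ± 0.09 (SE). The suffix _s_at marks probes shared by several transcripts, and GTF2I has partial pseudogene copies beside it in the genome, and their part in the signal was not tested. This is 1 probe set at a low level, and no other GTF2I probe set was analysed here. Of 12 names of the GTF2I family, including its pseudogenes and the related GTF2IRD genes, GTF2I was the 1 present in the table.

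**Figure D1:**
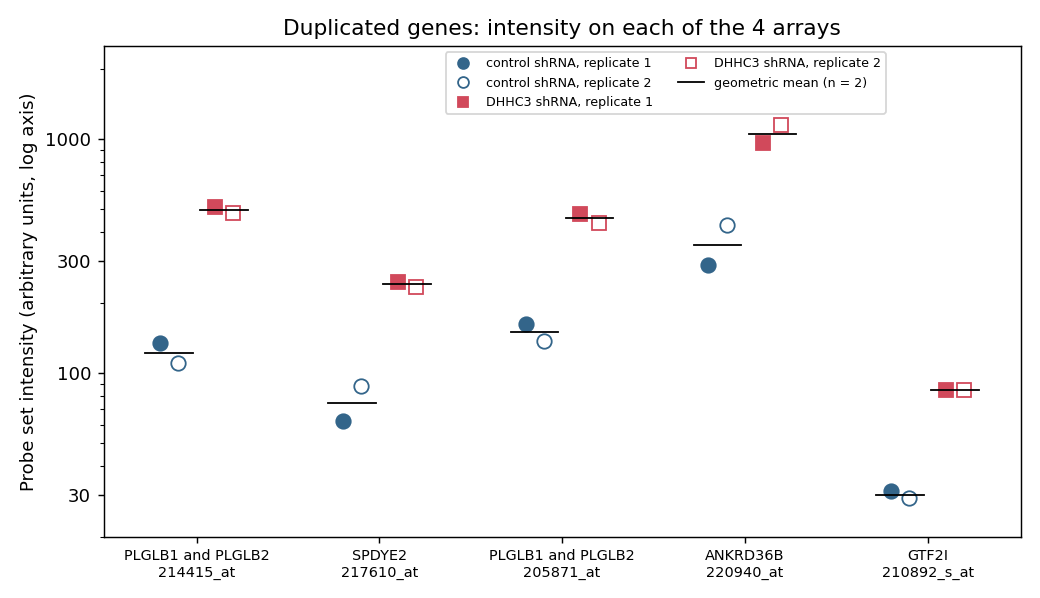
Intensity of the 5 probe sets (arbitrary units, log axis) on the 2 control shRNA arrays (circles) and the 2 DHHC3 shRNA arrays (squares), with filled symbols for replicate 1, open symbols for replicate 2 and a line at the geometric mean of each group. In each probe set both squares lie above both circles, from 85.0 and 84.5 over 31.4 and 29.1 for GTF2I to 962 and 1149 over 290 and 430 for ANKRD36B.

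Placed in order of fold change among all 137 probe sets, 214415_at was 1st, SPDYE2 was 8th, 205871_at was 10th, ANKRD36B was 11th and GTF2I was 14th. All 5 were therefore among the 14 highest as deposited, and centring left the places as they were. After quantile normalization 214415_at was 2nd, ANKRD36B 4th, 205871_at 7th and SPDYE2 11th, and GTF2I was 57th. The median log2 fold change of the 5 was 1.62, against 0.94 over all 137 probe sets and 0.92 over the other 132. All 5 were at least 2-fold higher, as were 35.8% of all probe sets. These places are those by which the genes came to attention and support nothing about duplicated genes as a class. Of SPDYE2 (log2 fold change 1.68), 205871_at (1.62), ANKRD36B (1.58) and GTF2I (1.49), each differs from the next in this order by less than its own SE, so the order among these 4 is not settled by 2 arrays per group.

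**Figure D2:**
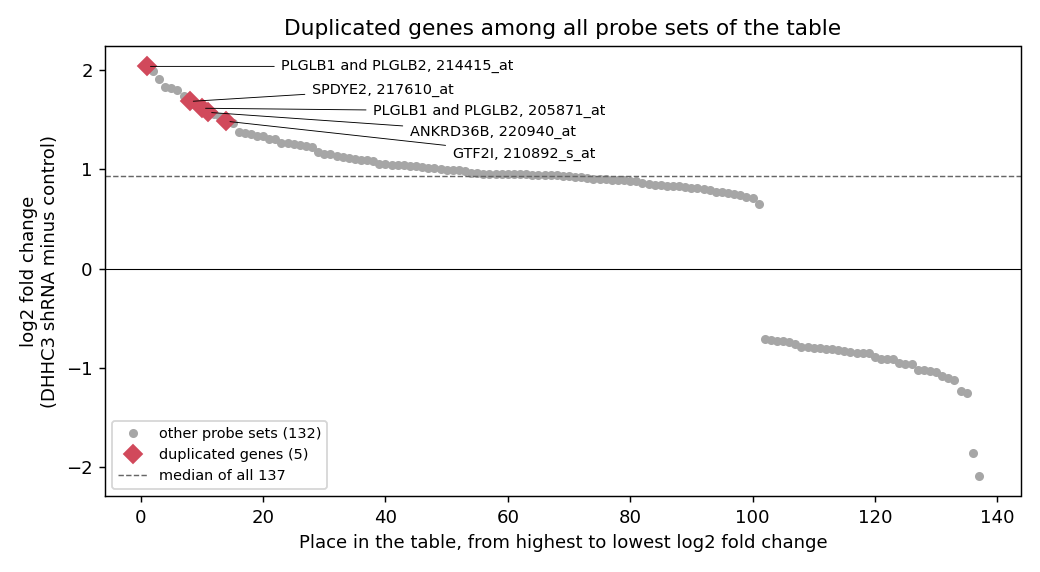
The log2 fold change (DHHC3 shRNA minus control) of all 137 probe sets, ordered from highest to lowest, with the 5 duplicated-gene probe sets as diamonds and the median of the table, 0.94, as a dashed line. The diamonds lie at places 1, 8, 10, 11 and 14.

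The spread between replicate arrays was larger in the control tumors than in the DHHC3 shRNA tumors for each of the 5. The medians of the whole table had the same order, at log2 differences of 0.15 and 0.09. Probe sets outside the 5 had it too, such as VGLL3 at 1.03 and 0.19. It is thus not particular to the 5. Some had the opposite order, such as TRBC1 at 0.10 and 0.99, and how many of the 137 had each order was not counted. Among the controls the 2 arrays differed by 0.11 to 0.57 on the log2 scale, and 4 of the 5 probe sets exceeded the median of the table, 0.15. Among the DHHC3 shRNA tumors they differed by 0.01 to 0.26, and 2 of the 5 exceeded the table's median of 0.09. The controls did not share an order: replicate 1 was the brighter control for 3 of the 5 probe sets (both PLGLB probe sets and GTF2I) and for 73 of the 137. Replicate 1 was the brighter DHHC3 shRNA array for 4 of the 5 and for 77 of the 137.

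**Figure D3:**
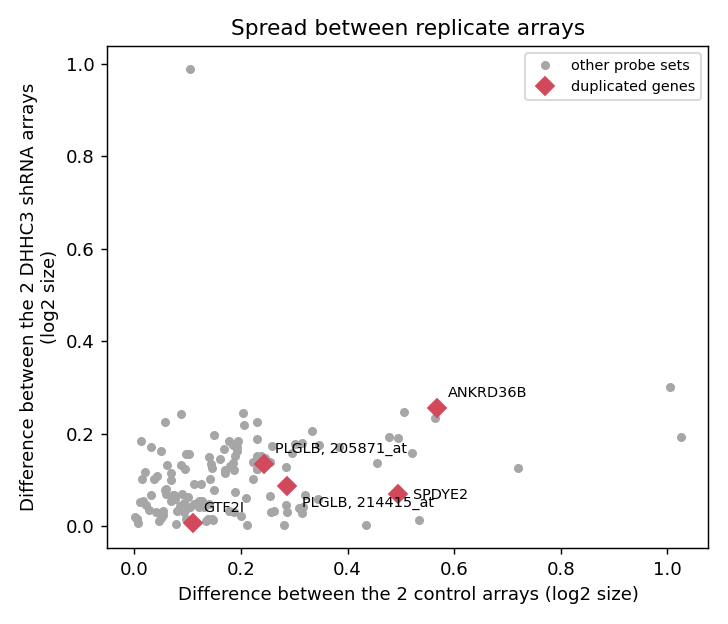
Size of the log2 difference between the 2 control arrays (horizontal) and between the 2 DHHC3 shRNA arrays (vertical) for each probe set of the table, with the 5 duplicated-gene probe sets as diamonds. ANKRD36B and SPDYE2 lie far to the right, at 0.57 and 0.50, and GTF2I lies near the origin, at 0.11 and 0.01.

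The fold changes depended on how the arrays were scaled to each other. The median intensity over the table was 312 and 351 units in the control tumors and 484 and 458 units in the DHHC3 shRNA tumors. Centring each array on that median lowered every log2 fold change by 0.51. The table holds only separated probe sets, 73.7% of them higher, so its median cannot tell array brightness from these differences. After centring, the fold changes were 2.89 for 214415_at, 2.26 for SPDYE2, 2.15 for 205871_at, 2.09 for ANKRD36B and 1.97 for GTF2I. Quantile normalization over the table gave 2.76 for 214415_at, 1.97 for 205871_at, 1.86 for SPDYE2, 2.51 for ANKRD36B and 1.37 for GTF2I. It lowered the table's median by 0.58. It moved GTF2I most and ANKRD36B least, and it keeps only the ranks within this list of chosen probe sets. No setting turned the direction of any of the 5. Relative to the table's own median, the median of the 5 was higher by 0.68 on the log2 scale as deposited and after centring, and by 0.62 after quantile normalization. Centring shifts all values alike and so cannot change this difference. The genes were chosen by their fold changes, so an excess over the table follows from the choice. In counts added after seeing the data, 4 of the 5 were at least 2-fold higher after centring, as were 9.49% of all probe sets. After quantile normalization 2 of the 5 were, as were 4.38% of all. These shares differ by the choice of the genes and show no enrichment.

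**Figure D4:**
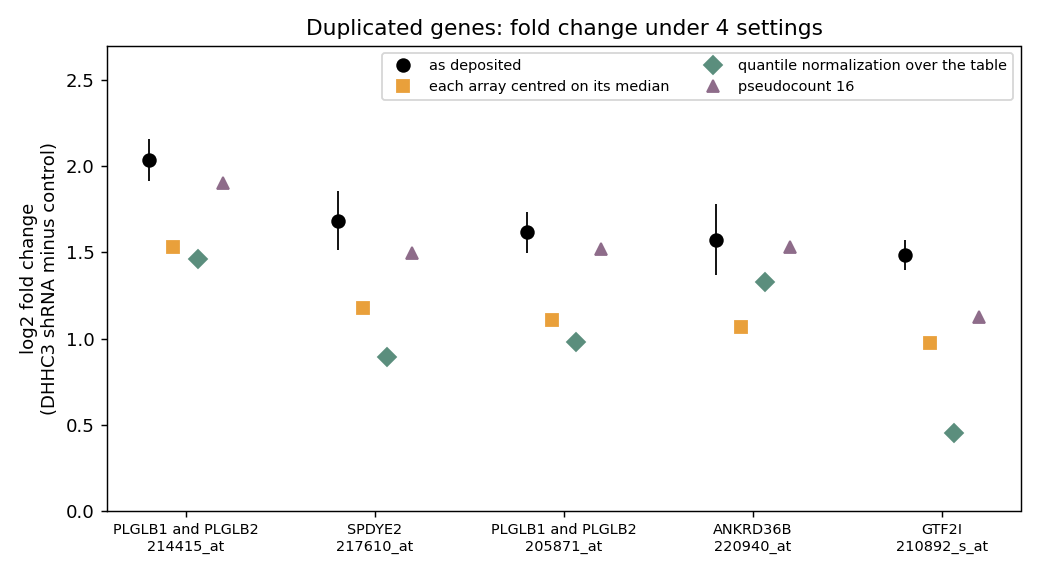
The log2 fold change (DHHC3 shRNA minus control) of each probe set as deposited (circles, with the SE of the limma fit), with each array centred on its median (squares), after quantile normalization over the table (diamonds) and with a pseudocount of 16 units (triangles). All points lie above 0, and those of GTF2I range from 1.49 as deposited to 0.45 after quantile normalization.

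Adding 16 units to every intensity before taking logs lowered the fold changes of the dim probe sets most. GTF2I went from 2.80-fold to 2.18-fold and SPDYE2 from 3.22-fold to 2.82-fold, and ANKRD36B stayed near its value, at 2.89-fold against 2.98-fold. GTF2I and SPDYE2 were the 2 of the 5 that a filter on the dimmest 25% of the table would remove, and 3 of the 5 would pass it. The table holds no detection calls, so whether the control level of GTF2I lay above background is unknown.

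Other genes known from segmental duplications were looked for by a list of 123 names, of which 3 were in the table. All 3 were higher after DHHC3 shRNA, as were 73.7% of all probe sets. The list is partial: other duplicated genes in the table, such as FAM106A (2.39-fold higher, noticed after its value was seen) and some on probe sets with several symbols, are not on it. NAIP, an inhibitor of apoptosis family member that senses bacterial proteins, read 74.4 and 64.3 units in the control tumors and 180 and 180 units in the DHHC3 shRNA tumors, a ratio of 2.60. POLR2J4, a pseudogene of an RNA polymerase II subunit, read 136 and 163 units against 377 and 334, a ratio of 2.38. RANBP2, a nuclear pore protein whose gene gave rise to the RGPD copies, read 208 and 230 units against 381 and 384, a ratio of 1.75, on a probe set with the suffix _x_at, given where some probes also match unrelated transcripts. The median log2 fold change of the 3 listed genes was 1.25, against 0.94 for the whole table. As with the 5, all probe sets of the table separate the groups, so the counts set these genes apart from nothing. The names that were not in the table were not analysed here.

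The likeness of patterns over the 4 arrays was measured as the Euclidean distance between log2 values centred on each probe set's own mean. Neighbours were sought among the other probe sets with 1 gene name, leaving out those of SPDYE2, ANKRD36B, GTF2I and the PLGLB genes. Distances among the probe sets left out are given separately below, and some are shorter than those to the neighbours named here. SPDYE2 and ANKRD36B were both nearest to COL6A3, a chain of collagen VI, at distances of 0.15 and 0.24, and next to PIP5K1B, a phosphatidylinositol phosphate kinase, at 0.17 and 0.43. COL6A3 read 265 and 330 units in the control tumors and 913 and 940 after DHHC3 shRNA, with control replicate 2 above control replicate 1 as in SPDYE2 and ANKRD36B. The last of the 3 neighbours was KIAA0754 for SPDYE2 (0.45) and N4BP2L2 for ANKRD36B (0.47). GTF2I was nearest to NAIP at 0.13, to TXNIP, the thioredoxin-interacting protein, at 0.14 and to SMYD2, a lysine methyltransferase, at 0.22. Probe set 205871_at was nearest to NAIP at 0.26, then to JAKMIP2 at 0.29 and TXNIP at 0.31. Probe set 214415_at was nearest to KAZN at 0.33, then to VGLL3 at 0.53 and JAKMIP2 at 0.54.

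Among themselves, GTF2I and 205871_at were the closest pair at 0.19, and SPDYE2 and ANKRD36B came next at 0.26. The 2 PLGLB probe sets, which list the same genes, were 0.42 apart, and 214415_at and ANKRD36B were the farthest pair at 0.80. For scale, the median distance between any 2 of the 101 probe sets that were higher after DHHC3 shRNA was 0.37. With 4 arrays in 2 groups this distance reflects mainly the size of the fold change and the order of the 2 control arrays.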

How the data were processed

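Total RNA of 4 xenograft tumors was amplified to biotinylated cRNA and hybridised to 1 array each, per the labels' protocols. The authors deposited linear, processed intensity values for 137 probe sets. How these were background-corrected, summarised, scaled and selected is not given in the sources used here. Symbols came from the platform annotation, which gives 1 symbol for 101 probe sets, several for 7 and none for 29. No human sequence was used, so no sequences or positions are shown.

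Intensities were taken to log2 with no pseudocount and no further scaling. limma 3.58.1 in R 4.3.3 was fitted to all 137 probe sets (DHHC3 shRNA minus control, no covariates), with Benjamini-Hochberg adjustment and a threshold of 0.05. The fit gave the SEs and the background share. No p-value is given for a gene chosen on this contrast. The SEs borrow spread from the whole table, which holds only separated probe sets, so they may be too small. The pooled replicate SD, here equal to an SE without borrowing, was 0.31 for ANKRD36B and 0.05 for GTF2I. Their SEs from the fit were 0.21 and 0.09. The fit was tested on simulated data that were not selected for separation, so that test does not bear on these SEs. Fold changes are ratios of geometric means. Genes and lists were chosen with earlier results of these data known. The text names the 5 probe sets, ZDHHC3, table members of the duplication lists and, for each of the 5, the 3 nearest patterns outside the 5. Outside this rule it names TRBC1, BCL2A1, PTPN7, HCLS1, COL4A1, S100A4 and FAM106A, picked after their values were seen. The precision is limited by the number of arrays: with 2 against 2, the smallest two-sided exact permutation p is 0.333. Python 3.11.15, pandas 2.3.3 and matplotlib 3.10.9 were used for summaries and figures.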

Additional observations from a re-analysis of the deposited data

How the results depend on the processing

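Over the 5 probe sets the median log2 fold change was 1.62 as deposited, 1.11 with each array centred on its median, 0.98 after quantile normalization over the table and 1.52 with a pseudocount of 16. It ran from 1.54 to 1.86 when 1 array was left out. It was 1.63 with the PLGLB probe sets averaged and 1.65 with plain _at probe sets alone. All 40 values of single probe sets under these alternatives kept their direction, which the table's construction nearly fixes. 10 of them moved by more than 1 replicate SD, all under centring, quantile normalization or the pseudocount; centring shifts every value alike, and quantile normalization keeps only ranks. The count of probe sets past the limma threshold, 137, was 124 after centring, 104 after quantile normalization and 103 of 103 without the dimmest 25%. It was 137 with a pseudocount, with an intensity trend, with a threshold of 0.1 and with each array left out in turn, where the lone array is assumed to vary like the other group. In a table that holds only separated probe sets this count says nothing about stability. With the replicate number as a block, the median over the 5 stayed 1.62 and all 137 passed. The numbers are only names here: arrays of the same number had deviations that correlated at 0.06 over the probe sets. Signal over background is unknown, which limits the fold changes of GTF2I and SPDYE2 most.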

Other observations

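7 probe sets of the table list more than 1 gene symbol, and all 7 were higher after DHHC3 shRNA. So were 66 of 101 with 1 symbol, 28 of 29 with no symbol and 73.7% of all probe sets. Being higher is thus not particular to probe sets with several symbols. Both PLGLB probe sets are among the 7. The other 5 ranged from 1.65-fold to 2.52-fold higher, with a median of 2.13-fold, and no gene is named from them. These groups were compared after their values were seen, and no test was run.

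The mouse annotation GRCm38.p6 lists a gene of the same symbol for 1 of the 5 duplicated genes, Gtf2i. Over all named probe sets of the table, 92 have a symbol that the mouse annotation holds as a symbol or synonym, and 60 of these were higher after DHHC3 shRNA, with a median log2 fold change of 0.84. The other 16 hold 13 that were higher, with a median of 1.06. Without the 4 probe sets of SPDYE2, ANKRD36B and the PLGLB genes, 9 of 12 were higher, with a median of 0.92. A shared symbol does not show that a human probe binds the mouse transcript, and the part of host RNA in these values was not tested.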
